A study of Arabidopsis thaliana with 16 samples.

Results

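AT3G04700, AT4G14315 and AT2G35765 are 3 nuclear genes of Arabidopsis thaliana, out of 33323 genes counted, that were chosen by their counts, which were higher in libraries primed with oligo(dT) than in libraries primed with random hexamers. That difference is therefore described here and not tested. The RNA came from semi-in vivo pollen tubes, which had grown through a cut pistil before they were collected. Plants of both genotypes were of the ecotype Col-0 and were either paps1-1 mutants or wild type. Of 8 RNA samples, 4 per genotype, each was divided into an oligo(dT)-primed library and a random-hexamer-primed library, which gave 4 groups of 4 libraries and 16 libraries in all. The groups were paps1-1 oligo(dT), paps1-1 random hexamer, wild-type oligo(dT) and wild-type random hexamer. Nothing in the labels ties the replicates to separate plants or days, or gives the zygosity of paps1-1, and every p-value therefore refers to the spread of these 8 RNA samples, part of which may be technical.

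PAPS1 encodes a nuclear poly(A) polymerase, an enzyme that adds the poly(A) tail to newly made transcripts, and paps1-1 is a mutant allele of it. Oligo(dT) primers anneal to stretches of A, mainly the poly(A) tail at the 3' end, and reverse transcription then starts from there. Random hexamers anneal along the transcript, so that a long transcript offers more places to start than a short transcript does. The title of the series ties the paired libraries to an estimate of poly(A)-tail length, and both libraries of an RNA sample together give the oligo(dT) to random-hexamer ratio used here.

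In RefSeq's annotation of the TAIR10.1 assembly all 3 genes lie on the plus strand and have a single transcript model each. AT3G04700, at chr3:1276668-1277824, has 2 exons and a transcript of 1073 bases with a coding part of 576 bases, a 5' UTR of 280 bases and a 3' UTR of 217 bases, and its product is named a carboxylate clamp-TPR protein of the DUF1685 family, a family of plant proteins with no assigned function. AT4G14315, at chr4:8240847-8241341, has 1 exon of 495 bases and codes for an uncharacterised protein of 59 residues. AT2G35765, at chr2:15033537-15034091, has 2 exons and a transcript of 455 bases, and codes for an uncharacterised protein of 73 residues. Since oligo(dT) could also anneal to A-rich stretches within a transcript, the most A-rich window of 20 bases of each transcript is shown here, read from RefSeq's TAIR10.1 sequence with the longest run of A in the window in capitals, followed by the last 30 bases of AT3G04700, which hold its longest run.
AT3G04700, chr3:1277675-1277694, plus strand, 3' UTR: aaagaaacAAAAAAcaacta
AT4G14315, chr4:8241258-8241277, plus strand, 3' UTR: atacatttatAAAAAcaaaa
AT2G35765, chr2:15033586-15033605, plus strand, 5' UTR: aaagaaagAAAAtagaagaa
AT3G04700 end, chr3:1277795-1277824, plus strand, 3' UTR: gatgtatacAAAAAAAAAgattacaatatg

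The windows of AT3G04700 and AT2G35765 hold 15 A, and that of AT4G14315 holds 13. Over the 14180 genes that passed the filter on low counts and had a transcript model, 30% had a window with 15 or more A, 78.1% had one with 13 or more, and the median was 14. The longest run of A was 9 in AT3G04700, a length that 16.9% of genes reached, and 5 in both AT4G14315 and AT2G35765, a length that 94.5% reached. The run of 9 lies in the last 30 bases of AT3G04700, shown above. These shares were not matched for transcript length. The 1586 genes with a run of 10 or more had a median log2 oligo(dT) to random-hexamer ratio of -2.54 in paps1-1 and -3.85 in wild type. For the 12594 genes with shorter runs it was -2.53 in paps1-1 and -3.92 in wild type. Whether priming within the transcripts had a part in the oligo(dT) counts was not tested.

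Gene counts ranged from 70006 to 5294715 per library, with medians of 943340.5 in oligo(dT) and 2462378.5 in random-hexamer libraries, so that 3 counts, the limit that a count of 0 allows, stood for 0.567 to 42.9 CPM (the usual scaling of counts to the size of a library, here its gene counts). The shallowest library was wild-type oligo(dT) replicate 3, in which 2266 genes were detected. No molecular identifiers were used, and all intervals and limits given here account for counting error alone. A list of 7 genes of the vegetative pollen tube was detected in full in every group and held 2.36% to 8.35% of the gene counts of paps1-1 and 6.68% to 13.4% of those of wild-type oligo(dT) libraries. Among 6 pistil genes 5 were detected in each group but wild-type oligo(dT), where 3 were, and CRC was at 0 throughout.

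AT2G35765 was the most abundant of the 3. With oligo(dT) its values were 9801, 3737, 4094 and 5142 CPM in paps1-1 replicates 1 to 4 and 11521, 6393, 1657 and 5420 CPM in wild-type replicates 1 to 4. With random hexamers the values were 543, 347, 201 and 675 CPM for paps1-1 and 771, 121, 651 and 474 CPM for wild type. The lowest oligo(dT) value, from the shallow wild-type replicate 3, was still above the highest hexamer value, and no library lacked the transcript. Ranked by count, AT2G35765 was between the 8th and the 44th gene of the oligo(dT) libraries, with a median rank of 15.5, and between the 172nd and the 1148th of the random-hexamer libraries, with a median rank of 239.5. Its counts summed to 96269 with oligo(dT) and 9429 with random hexamers.

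AT4G14315 was abundant with oligo(dT) and close to the detection limit with random hexamers. Its oligo(dT) values were 1711, 828, 951 and 556 CPM in paps1-1 tubes and 1410, 424, 0 and 285 CPM in wild-type tubes, and its hexamer values were 13.4, 0, 2.81 and 16.7 CPM in paps1-1 tubes and 9.65, 1.52, 3.18 and 0 CPM in wild-type tubes. Wild-type replicate 3 was the exception, with 0 counts in the oligo(dT) library, where up to 42.9 CPM would go undetected, and 2 counts in the random-hexamer library. The other 7 oligo(dT) libraries were all above every random-hexamer library. In all, AT4G14315 had 14500 counts with oligo(dT) and 138 with random hexamers.

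AT3G04700 was close to all-or-none between the priming methods. It stood at 528, 185, 79.4 and 380 CPM in paps1-1 oligo(dT) libraries and at 395, 274, 543 and 1045 CPM in wild-type oligo(dT) libraries. With random hexamers it had 0, 0, 1 and 0 counts in paps1-1 and 15, 1, 0 and 0 counts in wild type, so that 5 of 8 libraries had none and 1 library, wild-type replicate 1, held 15 of the 17 counts. With oligo(dT) it had 5034 counts and none of the 8 libraries lacked it, although wild-type replicate 3 held only 38.

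**Figure D1:**
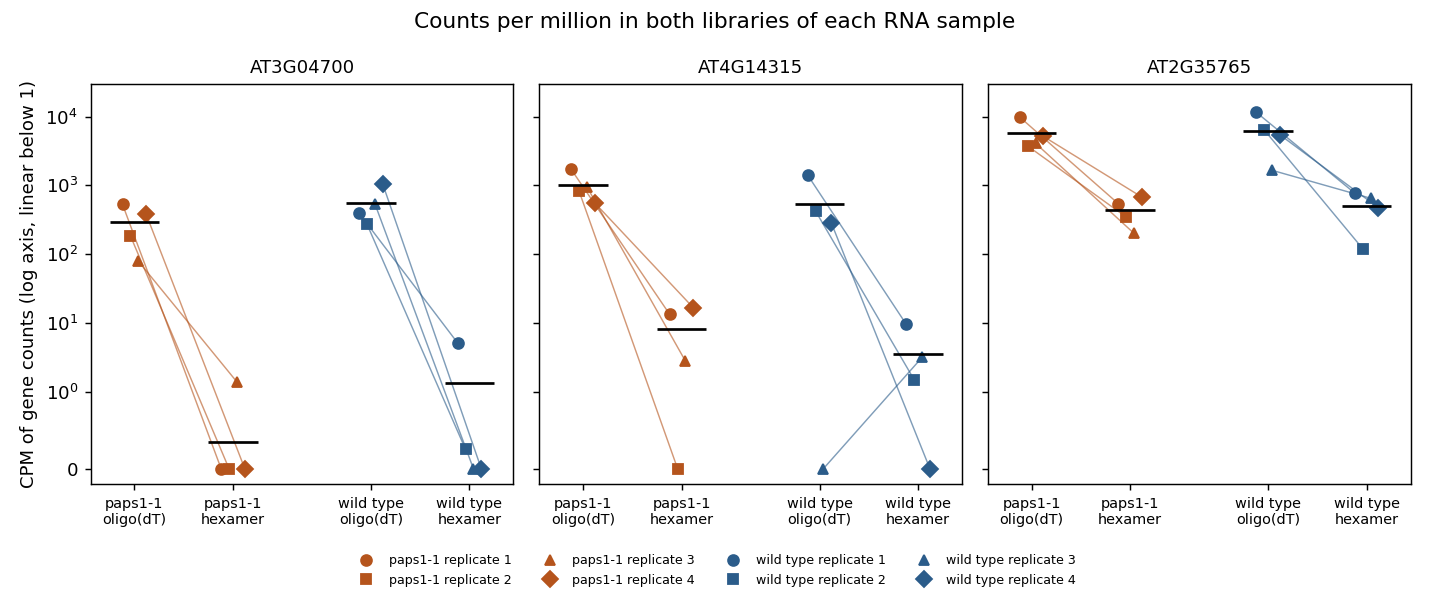
CPM (vertical axis, logarithmic above 1 and linear below) of AT3G04700, AT4G14315 and AT2G35765 in oligo(dT) and random-hexamer libraries of paps1-1 (orange) and wild type (blue); lines join both libraries of an RNA sample, symbols give the replicate and black bars the group mean (n = 4). Every line but that of AT4G14315 in wild-type replicate 3 falls to the right, and 5 of 8 hexamer libraries of AT3G04700 and 2 of 8 of AT4G14315 are at 0.

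The levels were also set against the length of exon that belongs to each gene alone. In oligo(dT) libraries AT2G35765 averaged 13122 ± 7134 CPM per kilobase (SD, n = 8, both genotypes), AT3G04700 1824 ± 1258 and AT4G14315 1557 ± 1164 CPM per kilobase. AT3G04700 and AT4G14315 differed by less than the spread between libraries. In random-hexamer libraries AT2G35765 averaged 1039 ± 512, AT4G14315 11.9 ± 13.1 and AT3G04700 3.63 ± 7.71 CPM per kilobase (SD, n = 8), and the ranges of AT4G14315 and AT3G04700 overlapped. Reads from a 3' end do not spread over a transcript, so a level per kilobase from oligo(dT) libraries may not follow the number of molecules.

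Ratios of oligo(dT) to random-hexamer CPM were formed within each RNA sample. For AT3G04700 the hexamer library was at 0 in 5 RNA samples, and the ratio, computed against 3 counts per library, was at least 933, at least 205 and at least 220 in paps1-1 replicates 1, 2 and 4 and at least 114 and at least 705 in wild-type replicates 3 and 4. In the other RNA samples it was 56.4 in paps1-1 replicate 3 (95% counting interval 9.73 to 2268), 76.3 in wild-type replicate 1 (46.1 to 137) and 1085 in wild-type replicate 2 (193 to 43025). Both the first and the last of these rest on a single hexamer count, which the width of their intervals shows.

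For AT4G14315 the ratios were 128 (101 to 164), at least 920, 338 (93.3 to 2798) and 33.2 (22.7 to 50.4) in paps1-1 replicates 1 to 4. In wild type they were 146 (101 to 220), 280 (128 to 767) and at least 192 in replicates 1, 2 and 4, with no ratio in replicate 3, where both libraries were under the detection limit. For AT2G35765, with counts in every library, the ratios were 18.1, 10.8, 20.4 and 7.61 in paps1-1 and 14.9, 53.0, 2.55 and 11.4 in wild type. The 2.55 of wild-type replicate 3 had an interval of 2.05 to 3.14 and the 53.0 of wild-type replicate 2 an interval of 48.3 to 58.2, so RNA samples of a genotype differed well beyond counting error. By CPM the oligo(dT) value was the higher in 8 of 8 RNA samples for AT3G04700, in 7 of 8 for AT4G14315 and in 8 of 8 for AT2G35765, the direction for which they were chosen. The count for AT2G35765 depends on the scaling. With CPM scaled by TMM factors, the normalisation of the fits below, its lowest wild-type log2 ratio was -0.80.

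Across all genes oligo(dT) values were mostly the lower. In a fit of 14190 genes over the 16 libraries, blocked by RNA sample, the median log2 ratio of oligo(dT) to random-hexamer counts was -2.53 in paps1-1 and -3.92 in wild type, and 17.2% of genes in paps1-1 and 16.9% in wild type were above 0. These medians depend on the method. With DESeq2's Wald test they were -2.24 in paps1-1 and -1.75 in wild type, the other order of the genotypes. Without the block by RNA sample they were -0.67 in paps1-1 and -1.46 in wild type. In the blocked fit AT3G04700 had log2 ratios of 10.14 in paps1-1, with 0 genes higher, and 8.90 in wild type, with 4 genes higher. AT4G14315 had 7.11 in paps1-1, with 10 genes higher, and 6.46 in wild type, with 62. AT2G35765 had 3.10 in paps1-1, with 213 genes higher, and 2.78 in wild type, with 552. These ranks describe the choice of the genes and are no evidence beyond it. For AT3G04700, with almost no hexamer counts, the fitted value depends on how counts of 0 are handled and is not a bound.

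The genotypes were compared in the log2 ratio per RNA sample (prior count 2), which the choice of the genes did not use. The mean log2 ratio of AT3G04700 was 7.63 ± 1.80 in paps1-1 and 8.29 ± 1.78 in wild type (SD, n = 4 each), a difference of -0.66 (exact two-sided permutation p = 0.571). Of its 8 ratios 5 had no hexamer count, and their values depend on the prior count. With a prior count of 0.5 its means were 9.26 ± 2.52 in paps1-1 and 9.66 ± 2.63 in wild type, a difference of -0.40. AT4G14315 averaged 7.41 ± 2.01 in paps1-1 and 5.15 ± 4.89 in wild type (SD, n = 4 each), a difference of 2.26 (exact two-sided permutation p = 0.571). That difference rested on wild-type replicate 3, at -2.14, and was -0.17 without it. Both libraries of that RNA sample were under the detection limit, so its value is set by the prior count and was -3.87 with a prior count of 0.5. AT2G35765 averaged 3.72 ± 0.66 in paps1-1 and 3.62 ± 1.79 in wild type (SD, n = 4 each), a difference of 0.10 (exact two-sided permutation p = 0.914), and -0.66 without wild-type replicate 3. The genotypes overlapped for each gene. With 4 RNA samples against 4 the smallest p such a test allows is 0.0286, and the 3 p-values were not adjusted.

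**Figure D2:**
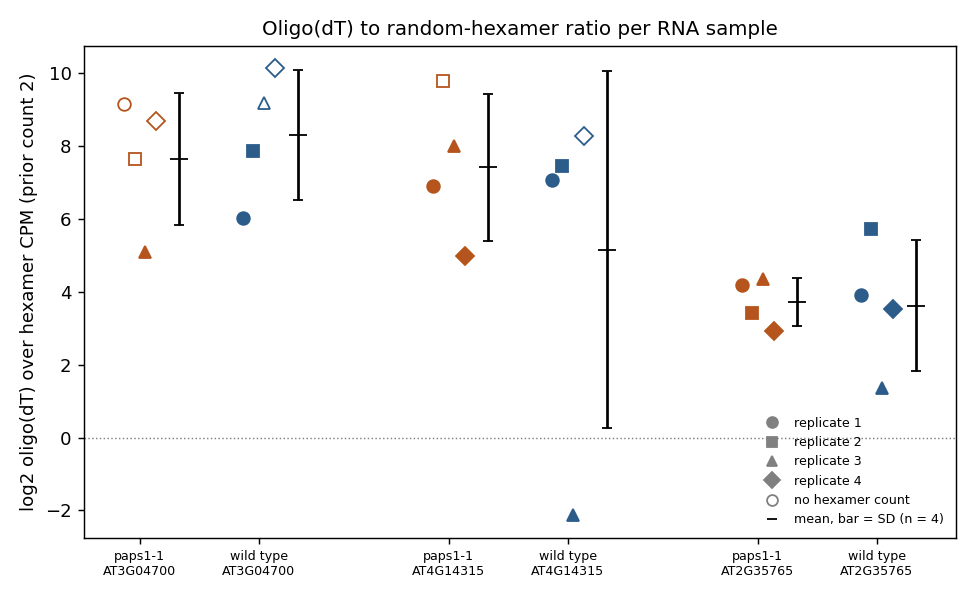
Log2 ratio of oligo(dT) to random-hexamer CPM (prior count 2) per RNA sample for AT3G04700, AT4G14315 and AT2G35765 in paps1-1 (orange) and wild type (blue), with the mean and SD (n = 4) beside the points; open symbols mark RNA samples with no hexamer count. Paps1-1 and wild type overlap for each gene, and wild-type replicate 3 lies at -2.14 for AT4G14315, below all other points. That point is set by the prior count, since both libraries were under the detection limit.

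The same question was put to all genes at once by the interaction of genotype and priming in edgeR's quasi-likelihood test. None of the 3 genes passed the threshold of an adjusted p of 0.05, and none had an unadjusted p under 0.05 by edgeR or by DESeq2. Of 14190 genes tested edgeR called 0, or 0%, with 231 at an unadjusted p under 0.05, while DESeq2's Wald test called 39. The fitted difference in log2 ratio, paps1-1 minus wild type, was 1.23 ± 2.19 (SE) for AT3G04700, 0.65 ± 2.10 for AT4G14315 and 0.32 ± 1.03 for AT2G35765 (edgeR adjusted p = 1 for each), beside a median of 0.97 over all genes. The median over all genes was -0.36 under DESeq2, so these differences have no fixed zero, and for AT3G04700 the fitted difference and the mean of the ratios per RNA sample had opposite signs.

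Within the oligo(dT) libraries none of the 3 genes passed the threshold between genotypes or had an unadjusted p under 0.05 by edgeR or DESeq2, where edgeR called 1 of 5101 genes, or 0.0196%. AT3G04700 averaged 293 ± 200 CPM in paps1-1 tubes and 564 ± 339 CPM in wild-type tubes (SD, n = 4 each), with a log2 fold change of -0.58 ± 1.25 (SE, edgeR adjusted p = 1.00). AT4G14315 averaged 1012 ± 495 CPM in paps1-1 tubes and 530 ± 613 CPM in wild-type tubes, with a log2 fold change of 0.95 ± 1.12 (edgeR adjusted p = 1.00). AT2G35765 averaged 5694 ± 2802 CPM in paps1-1 tubes and 6248 ± 4066 CPM in wild-type tubes, with a log2 fold change of -0.0050 ± 0.81 (edgeR adjusted p = 1.00). The median over all genes was 0.43 with edgeR and 0.81 with DESeq2. The pollen-tube genes held a median of 3.98% of the gene counts of paps1-1 and 8.16% of those of wild-type oligo(dT) libraries. Of 6 pistil genes 5 were detected in paps1-1 and 3 in wild type, where STK, SHP2 and CRC were at 0, and the list held 0.0130% to 0.0554% of the gene counts of paps1-1 and 0% to 0.00804% of those of wild type. All 6 genes of photosynthetic tissue were detected in both, at 0.0141% to 0.375% in paps1-1 and 0.00265% to 0.169% in wild type. The part of these lists in the values of the 3 genes was not tested. In such samples less of a cell type and less RNA per cell cannot be told apart.

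With random hexamers only AT2G35765 passed the filter on low counts. It averaged 442 ± 209 CPM in paps1-1 tubes and 504 ± 283 CPM in wild-type tubes (SD, n = 4 each), with a log2 fold change of -0.27 ± 0.71 (SE, edgeR adjusted p = 1.00), in a comparison where 9 of 12595 genes, or 0.0715%, were called. AT4G14315 averaged 8.24 ± 8.08 CPM in paps1-1 tubes and 3.59 ± 4.25 CPM in wild-type tubes, and AT3G04700 averaged 0.352 ± 0.703 CPM in paps1-1 tubes and 1.36 ± 2.55 CPM in wild-type tubes (SD, n = 4 each). Without the filter AT4G14315 had a log2 fold change of 0.96 ± 1.80 (SE, edgeR adjusted p = 0.948) and AT3G04700 one of -3.16 ± 2.97 (edgeR adjusted p = 0.789), fitted to 17 counts of which 15 were in wild-type replicate 1. Pollen-tube genes held 1.19% to 3.34% of the gene counts of paps1-1 and 1.81% to 2.95% of those of wild-type random-hexamer libraries. Of 6 pistil genes 5 were detected in both genotypes. The pistil list held 0.00984% to 0.0421% in paps1-1 (median 0.0112%) and 0.00272% to 0.00987% in wild type (median 0.00959%). The list of photosynthetic tissue held 0.0117% to 0.322% in paps1-1 (median 0.0197%) and 0.0113% to 0.111% in wild type (median 0.0303%).

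Reads of the 3 genes came almost wholly from the strand of the gene. The gene strand held 98.7% of AT3G04700's oligo(dT) counts on either strand, 99.3% of AT4G14315's and 99.8% of AT2G35765's, against a median of 95.1% of all gene counts of a library and a lowest of 66.0% in wild-type oligo(dT) replicate 3. The lowest single library of AT3G04700 was paps1-1 oligo(dT) replicate 1, with 59 of its 65 opposite-strand counts and a gene-strand share of 96.3% (95% Wilson interval 95.2% to 97.1%).

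AT3G04700 has little exon of its own in the annotation. Its first 838 exon bases, 78.1% of its transcript, are also exon of a long model of TPR10 (AT3G04710), annotated as an ankyrin repeat protein, on the same strand, and a read that fits exons of more than 1 gene is left out of STAR's gene counts. What remains is a stretch of 235 bases at the 3' end, at chr3:1277590-1277824, with 18 coding bases and the 217 bases of the 3' UTR, which holds both A-rich sequences shown above for this gene. Of genes compared, 0.0353% had as small a share of exon of their own, and 95.1% shared none on their strand. A share under 25% was found in 6 genes, AT3G04700 among them. Their median log2 priming ratios were -6.05 in paps1-1 and -6.86 in wild type. In each genotype 1 of the 6 was above 0, against 17.2% of all genes in paps1-1 and 16.9% in wild type. That 1 gene was AT3G04700 itself, chosen for a high ratio, so the count cannot show how such genes compare with all genes. The part of shared exon in the ratio was not tested for AT3G04700. On the opposite strand its first 278 bases overlap exon at the 5' end of ANX1 (AT3G04690), a receptor-like kinase that keeps the growing pollen tube intact. The gene annotation behind the deposited counts is not given in the sources used here, so that its model of TPR10 may differ.

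**Figure D3:**
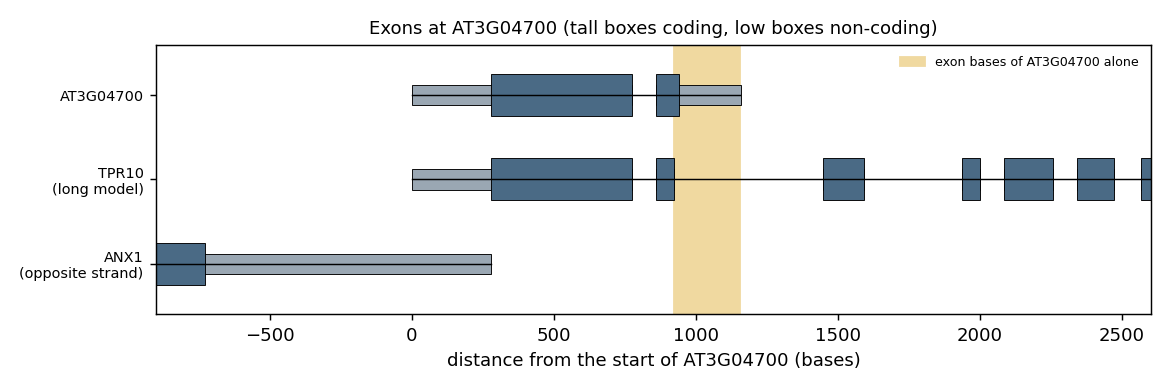
Exons of AT3G04700, of the long model of TPR10 on the same strand and of ANX1 on the opposite strand, by distance in bases from the start of AT3G04700; tall boxes are coding, low boxes non-coding, and TPR10 and ANX1 run on beyond the range drawn. The shaded 235 bases at the 3' end are the exon of AT3G04700 that no other gene shares.

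The genes that overlap AT3G04700 were counted as well. ANX1 had 1987 counts with oligo(dT) and 15461 with random hexamers, and its oligo(dT) value was the higher in 0 of 8 RNA samples. TPR10 had 316 counts with oligo(dT) and 352 with random hexamers and was higher with oligo(dT) in 4 of 8.

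AT4G14315 shares no exon with another gene. Its neighbours AT4G14310, 458 bases away, and AT4G14320, 390 bases away and coding for a ribosomal protein of the large subunit, had 315 and 493 counts with oligo(dT) and 1025 and 391 with random hexamers. Their oligo(dT) values were the higher in 2 and 5 of 8 RNA samples. Scaled for depth, their ratios of mean CPM, oligo(dT) over random hexamers, were 2.45 and 2.06. AT4G14310 ranged from 0 to 729 CPM with oligo(dT). AT2G35765 overlaps scpl28 (AT2G35770), a serine carboxypeptidase-like gene, by 55 bases on the opposite strand. Counted without regard to strand, AT2G35765 lost 1.97% of its counts. scpl28 had 243 counts with oligo(dT) and 18 with random hexamers, and AT2G35760, 194 bases away on its other side, had 184 with oligo(dT) and 117 with random hexamers. Their oligo(dT) values were the higher in 4 and 2 of 8 RNA samples. The ratio of mean CPM was 14.6 for scpl28, from few counts, and 1.30 for AT2G35760, beside 12.6 for AT2G35765.

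AT4G14315 and AT2G35765 are among the shortest transcripts measured. Of the 14180 genes compared, 0.832% had a transcript as short as that of AT4G14315 and 0.642% one as short as that of AT2G35765, while 13.9% were as short as AT3G04700 and the median was 1848 bases. In the fit blocked by RNA sample, short transcripts had the higher ratios in general. The 236 genes with transcripts under 600 bases had a median log2 ratio of 0.68 in paps1-1, with 60.2% of them above 0, and 0.42 in wild type, with 57.2% above 0. The 13944 longer ones had a median of -2.57 in paps1-1, with 16.5% above 0, and -3.97 in wild type, with 16.2% above 0. Spearman's rho between length and ratio was -0.363 in paps1-1 and -0.318 in wild type across these genes, which are not independent replicates and share the same libraries. The limit of 600 bases was chosen after the lengths of the 3 genes were known, and no test was made.

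Among the 236 short transcripts AT2G35765 was exceeded by 45 in paps1-1 and 53 in wild type, and AT4G14315 by 3 in paps1-1 and 14 in wild type. These ranks follow from the choice of the genes by the same ratio. AT3G04700 has 1073 bases, and the 6565 genes of at least 1000 and under 2000 bases had a median of -2.18 in paps1-1 and -3.45 in wild type. The part of length in the ratios of the 3 genes was not tested.

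**Figure D4:**
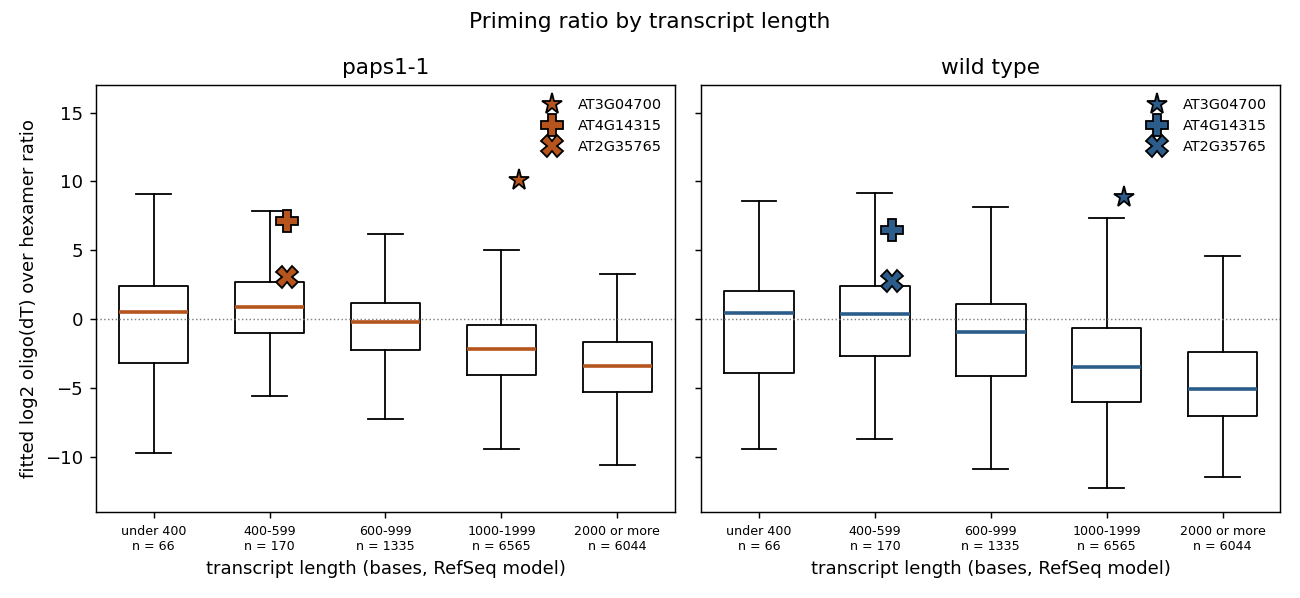
Fitted log2 ratio of oligo(dT) to random-hexamer counts by transcript length in paps1-1 (left) and wild type (right); boxes give the median and quartiles, whiskers reach the farthest gene within 1.5 times the box's height, genes beyond them are not drawn, and n is the number of genes. The medians fall with length from 0.88 (paps1-1) and 0.42 (wild type) in the second shortest class to -3.41 (paps1-1) and -5.05 (wild type) at 2000 bases or more; AT4G14315 and AT2G35765 lie above their box and AT3G04700 above its whisker.

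Other genes followed the 3 across the libraries. By Pearson's r of log2 CPM over the 16 libraries, among 14187 genes, AT4G14315 was most like AGP21 (r = 0.946), AGP23 (0.930) and AGP40 (0.918), which code for arabinogalactan peptides, short glycoproteins of the cell surface. AT2G35765 was most like AGP23 (0.960), BCP1 (0.955), also an arabinogalactan protein of pollen, and AT5G26692 (0.951), annotated as a putative membrane lipoprotein. AT3G04700 was most like AT5G11680 (0.914), annotated as a classical arabinogalactan protein, AT5G26692 (0.911) and AT2G41905 (0.903). Between the 3 genes themselves r was 0.892 for AT3G04700 and AT2G35765, 0.874 for AT4G14315 and AT2G35765 and 0.732 for AT3G04700 and AT4G14315. These values describe the 16 libraries, which share RNA in pairs and differ mainly in priming. All 7 of these genes had positive log2 priming ratios in both genotypes, from 0.77 to 5.42, a sign that follows from their choice by likeness to genes high with oligo(dT). Of the 7 transcripts 6 were between 427 and 706 bases long, with AT5G11680 at 1150. AGP23, of 460 bases, averaged 16360 CPM with oligo(dT) and 545 CPM with random hexamers.

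Genes related to the 3 were looked up in the annotation. The DUF1685 family has 11 annotated genes, of which 7 besides AT3G04700 passed the filter. None of the 7 had a positive log2 priming ratio in both genotypes. Of all genes, 17.2% in paps1-1 and 16.9% in wild type were above 0, each share for a single genotype, and the share above 0 in both is not given here. With 7 genes this count does not set the family apart. AT1G05870 was at 1.02 in paps1-1 and -4.02 in wild type. The medians of the 7 were -2.39 in paps1-1 and -3.79 in wild type, close to those of all genes in the same fit. By ratio of mean CPM over both genotypes AT1G05870 was at 8.11, AT4G33985 at 2.88 and AT2G31560 at 1.13, while the rest of the 7 were higher with random hexamers. AT1G19500, which RefSeq's annotation names as the best protein match of AT2G35765, had 22793 counts with oligo(dT) and 9418 with random hexamers. It averaged 1465 ± 892 CPM with oligo(dT) and 429 ± 229 CPM with random hexamers (SD, n = 8 each), and its oligo(dT) value was the higher in 7 of 8 RNA samples. The ratio of its mean CPM was 3.42, against 12.6 for AT2G35765.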

How the data were processed

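Counts per gene were deposited by the authors for each of the 16 libraries. STAR and TAIR10 are named as aligner and genome per the submitters' processing notes, and the annotation release is not given in the sources used here. Per the labels' protocols, libraries came from a kit with removal of ribosomal RNA. Of the deposited counts, those on the same strand as the gene entered the analysis. The 4 rows that name no gene held 55.1% to 99.6% of reads and were left out. No replicates agreed within sampling noise (chi-square per degree of freedom at least 19.5), and none was merged with another.

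The main test was the quasi-likelihood F test of edgeR 4.0.16 (R 4.3.3) on counts filtered by filterByExpr (at least 10 in enough libraries and 15 in total) and normalised by TMM, with Benjamini-Hochberg adjustment over all genes tested and a threshold of 0.05. Genotypes were compared within the 8 libraries of a priming method, and the interaction over 16 libraries blocked by RNA sample, since the labels' protocols say that both libraries of a pair share their RNA. Ratios per RNA sample used log2 CPM with a prior count of 2 and an exact permutation test (scipy 1.17.1). Intervals of ratios are exact for counts, and those of shares are Wilson's, at 95%. The alternatives were DESeq2 1.42.0, its size factors, no filter, counts without strand, a prior count of 0.5, blocks and libraries left out. The scripts were tested on simulated data.

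Gene models and sequences came from RefSeq's TAIR10.1, which carries the nuclear chromosomes of TAIR10. It matched 32835 of 33323 identifiers and all 3 genes. Where a gene has several models, the longest transcript was used for length. Protein sequences were not used here. The 3 genes and all lists were chosen with earlier results of these data known. Besides the 3 genes, the named genes are the 3 most like each by Pearson's r, the immediate neighbours, and genes of the same annotated family. AT1G19500 was added from the annotation's note on AT2G35765.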

Additional observations from a re-analysis of the deposited data

Results flagged for a closer look

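In 3 of 18 groups of 4 values checked, a value stood apart from the rest by more than Dixon's 95% limit for 4 values, which chance passes in about 1 in 20 groups of continuous values. AT3G04700 stood at 1.41 CPM in paps1-1 random-hexamer replicate 3, from 1 count, with the other paps1-1 hexamer libraries at 0. With all others at 0 any single count passes this limit, so the rate of 1 in 20 does not hold there. It stood at 5.17 CPM in wild-type random-hexamer replicate 1, from 15 counts, with at most 1 count in the other wild-type hexamer libraries. The log2 ratio of AT4G14315 was -2.14 in wild-type replicate 3, from 0 counts with oligo(dT) and 2 with random hexamers. Both are under the detection limit, so the prior count sets this value.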

How the results depend on the processing

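None of the 140 alternative values tested for AT3G04700, AT4G14315 and AT2G35765 passed the threshold, but 27 of them came from exact permutation tests that could not (smallest possible p = 0.0571 with a replicate left out and 0.125 for 4 pairs). Among the 113 that could pass, the lowest p was 0.424 (edgeR, adjusted). Of the 140, 32 had the other sign, so no direction between genotypes can be given for AT3G04700 or AT2G35765, nor for AT4G14315 in the difference of ratios. The cause of these changes was not tested. With oligo(dT) AT4G14315 kept its sign, but at 0.95 ± 1.12 (SE) it did not pass the threshold. Without paps1-1 replicate 1 it was at 0.21, below the median of 0.41 over all genes in that fit. No direction is therefore given for it there either. Genes called with oligo(dT), 1 in the reported test, were 7 with DESeq2 size factors, 51 with DESeq2's Wald test, 2 without the filter, 2 without regard to strand, 0 without paps1-1 replicates 2 and 3 (chosen after seeing the data), 4 with the replicate block and 0 to 3 with any 1 replicate left out. Those with random hexamers, 9, were 47 without the filter, 37 with the Wald test, 15 with the block and 4 to 11 with a replicate left out. Those in the interaction, 0, were 4 with DESeq2 size factors, 39 with the Wald test and 0 to 2 with a replicate left out.

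With oligo(dT), the log2 fold change of AT3G04700 was 0.24 without paps1-1 replicates 2 and 3, and -1.35 to 0.060 with a replicate left out. That of AT4G14315 was 0.21 to 2.36. That of AT2G35765 was 0.17 with DESeq2's size factors or Wald test, 0.071 without the filter, 0.64 without paps1-1 replicates 2 and 3, 0.19 with the block and -0.76 to 0.71 with a replicate left out. With random hexamers AT2G35765 was at 0.38 without paps1-1 replicates 2 and 3 and at -0.56 to 0.52 with a replicate left out. In the interaction AT3G04700 ranged from -0.69 to 3.61, AT4G14315 from -0.55 to 1.88 and AT2G35765 from -0.63 to 0.90 with a replicate left out. There AT4G14315 was at -1.13 without paps1-1 replicates 2 and 3 and at -0.084 without the block by RNA sample. AT3G04700 was at 3.97 and 3.32 under the same settings (1.23 in the reported test). AT2G35765 was at -0.031 with DESeq2's size factors and -0.033 with its Wald test.

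The genotype difference in log2 ratio per RNA sample ranged from -1.42 to 0.19 for AT3G04700, from -0.17 to 3.29 for AT4G14315 and from -0.66 to 0.80 for AT2G35765 with a replicate left out, and was -0.041 for AT2G35765 with DESeq2 size factors. The mean log2 ratio of AT2G35765 was 3.05 in paps1-1 and 2.54 in wild type with TMM factors, and the lowest wild-type RNA sample was then at -0.80. A prior count of 0.5 gave AT3G04700 mean log2 ratios of 9.26 in paps1-1 and 9.66 in wild type. With a replicate left out, mean log2 ratios stayed between 7.13 and 8.48 in paps1-1 and between 7.68 and 9.05 in wild type for AT3G04700, 6.62 and 8.23 in paps1-1 and 4.12 and 7.58 in wild type for AT4G14315, and 3.51 and 3.98 in paps1-1 and 2.92 and 4.38 in wild type for AT2G35765.

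Equal replicate numbers of the genotypes share only a number, with correlations from -0.07 to 0.30, and not every sample correlated best with its own number (replicates 1 and 2 did). With them as a replicate block, oligo(dT) log2 fold changes were -0.94, 1.79 and 0.19 for AT3G04700, AT4G14315 and AT2G35765, and the hexamer value of AT2G35765 was -0.16. In the interaction the replicate block across genotypes gave 1.95, 1.97 and 0.41. Of the hexamer values of AT3G04700 and AT4G14315, 5 and 2 of 8 were at 0, and a 0 gives an upper limit only. The part of depth in these values was not tested.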

Other observations

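Gene-strand shares of the 3 genes are given here for the oligo(dT) libraries with the lowest share over all genes. In wild-type oligo(dT) replicate 3 the gene strand held 66.0% of all gene counts, while all 38 counts of AT3G04700 and all 116 of AT2G35765 were on it, and AT4G14315 had 0 counts on either strand. In paps1-1 oligo(dT) replicate 4 it held 80.1% of all gene counts, and all 216 counts of AT3G04700, 316 of AT4G14315 and 2924 of AT2G35765.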
